A study of Homo sapiens with 10 samples.

Results

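The ANRIL peaks of chromosome 6 are the 448 intervals that the deposited list of 3227 places on that chromosome in hg19. All were taken by position, but members and windows were chosen with earlier results of these data known. ANRIL is a long non-coding RNA, and the list comes from ChIRP-seq, in which biotinylated oligos antisense to an RNA capture it from sonicated chromatin and the DNA recovered with it is sequenced. The cells were HEK293, an established human embryonic kidney line, with no treatment named in the labels. Each of 2 replicates was captured separately with the even and the odd pool of oligos against ANRIL, which makes 4 samples. Oligos against the bacterial gene LacZ gave 4 control samples in the same layout, and the other 2 samples are input chromatin. Read length was 43 bp, paired-end, at a stated 45 M reads per sample, and nothing in the labels says that the replicates came from separate cultures. The list holds 1 set of values per peak and does not say which replicate they, or the peak names, come from, so no replicate error can be given. The peak names read ANRILvsLacZ, which names LacZ as the control of the calls, and the design text takes even and odd samples together. Signal of the LacZ and input samples themselves was not analysed here.

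ANRIL is transcribed from the CDKN2A and CDKN2B locus on chromosome 9 and is known for binding Polycomb repressive complexes, which keep genes silent through histone marks. A peak on chromosome 6 is therefore a site away from the RNA's own gene. Chromosome 6 is known for a stretch of the short arm that carries the largest cluster of replication-dependent histone genes, a large group of tRNA genes and, next to them, the major histocompatibility complex (MHC), whose genes present antigens to T cells. No hg19 annotation or sequence was used here, so no gene was assigned to a peak and no peak sequence is shown.

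Peaks were found along the whole length of chromosome 6, at 2.62 per Mb against 0.950 per Mb on the rest of the genome. The chromosome held 13.9% of the list (exact 95% interval 12.7 to 15.1%, counting error only) on 5.53% of the length. A gene table of GRCh38.p14 places 1049 of 20037 protein-coding genes there, or 5.24%. Each of the 34 full bins of 5 Mb held between 6 and 25 peaks, with a median of 13.5, against 5.21 expected from the genome mean. None of the 34 was empty. In a two-sided exact binomial test of every 5 Mb bin of the genome, adjusted by Benjamini-Hochberg over 633 bins, 24 of the 35 bins of chromosome 6 lay above the genome mean and 0 below it. Over all 633 bins, 13.3% lay above and 26.5% below. The 24 bins held 12 to 25 peaks each, 2.30 to 4.80 times the mean (exact test, adjusted p from 8.82e-09 to 0.0322). The 10 full bins that did not pass held 6 to 11 peaks, 1.15 to 2.11 times the mean (exact test, adjusted p from 0.0574 to 0.772). The test takes peaks as independent, which neighbouring peaks may break. Among peaks with a score of 21 or more, the median of the list, 4 bins passed, or 11.4% against 6.95% of all bins. Among those with a score of 30 or more, 2 did, or 5.71% against 2.53% of all bins.

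**Figure D1:**
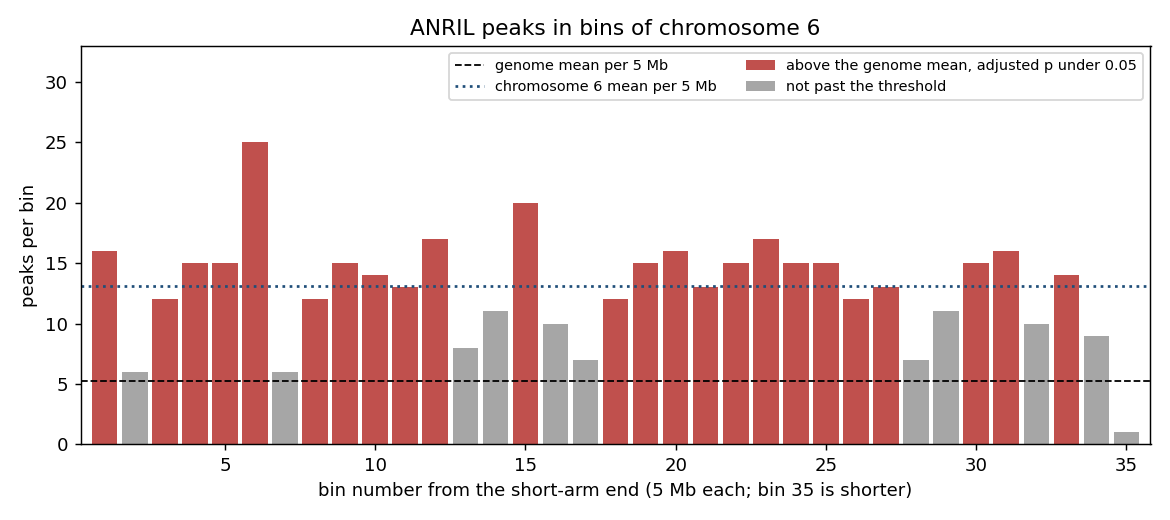
Number of ANRIL peaks (vertical axis) in each 5 Mb bin of chromosome 6, numbered from the short-arm end (horizontal axis), with red bars for bins above the genome mean in the exact binomial test and grey bars for the others. The 34 full bins hold 6 to 25 peaks and all stand above the dashed line of the genome mean at 5.21, and bin 6 is the highest with 25.

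Within the chromosome no single bin passed. Against chromosome 6's own mean of 13.1 peaks per 5 Mb, 0 of 35 bins passed the exact binomial test after adjustment over these bins, and 3 had an unadjusted p under 0.05. Those 3 were the bin from 25 to 30 Mb with 25 peaks (exact binomial p = 0.00272, adjusted p = 0.0953), and the bins from 5 to 10 Mb and from 30 to 35 Mb with 6 peaks each (exact binomial p = 0.0478, adjusted p = 0.536). The bin from 70 to 75 Mb was the second fullest, with 20 peaks, or 1.53 times the chromosome's mean (exact binomial p = 0.0658, adjusted p = 0.536).

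The variance of the counts over full bins was 1.21 times their mean on chromosome 6. It was 1.52 times on chromosome 17, where 11 of 17 bins lay above the genome mean. On chromosome X it was 6.84 times, and 25 of 32 bins lay above. Chromosome 19 had a ratio of 20.1 with 4 of 12 bins above, and chromosome 1 a ratio of 11.5 with 4 of 50. Counts ran from 0 to 55 per bin on chromosome X, from 0 to 49 on chromosome 19 and from 0 to 34 on chromosome 1. Low ratios were not particular to chromosome 6: chromosome 2 also stood at 1.21, chromosome 12 at 1.02 and chromosome 11 at 0.943, at medians of 2, 4 and 3 peaks per bin and with 0 bins above the genome mean on each. The ratios are descriptions and were not tested against each other.

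**Figure D2:**
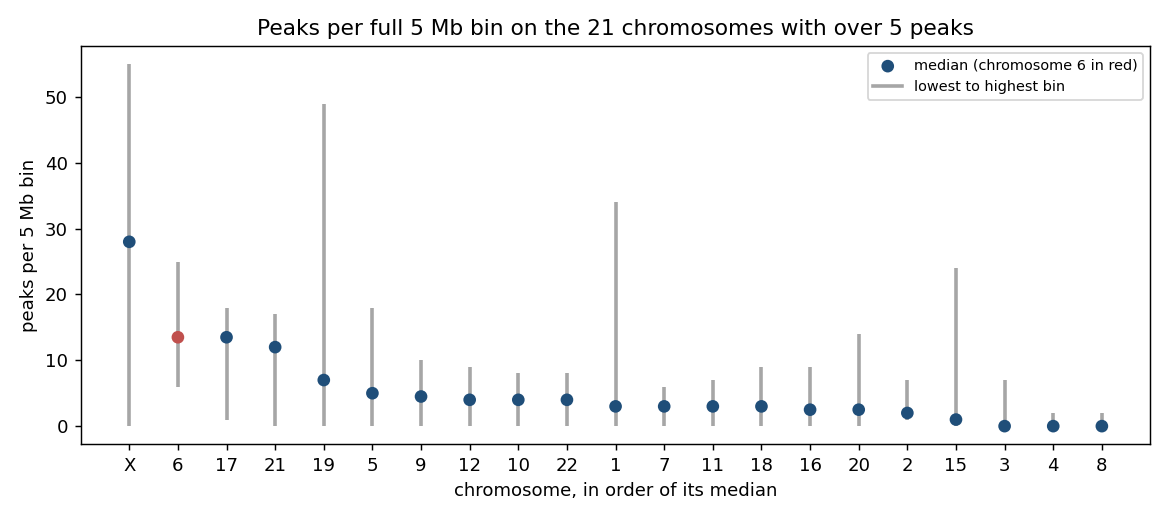
Peaks per full 5 Mb bin (vertical axis) for the 21 chromosomes with over 5 peaks, in order of the median (horizontal axis), with points for medians and grey lines from the lowest to the highest bin. Chromosome 6, the red point, has a median of 13.5 and a lowest bin of 6, while the lowest bin of chromosome X is at 0.

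The arms were compared by splitting the chromosome at 61 Mb. The short arm held 166 peaks and the long arm 282, or 2.72 and 2.56 per Mb. The short arm's share was 37.1% (exact 95% interval 32.6 to 41.7%) on 35.6% of the length, which was not distinguishable from its share of length (two-sided exact binomial test, adjusted p = 0.554 over 2 comparisons). Its ratio to the length share was 1.04, with an interval of 0.914 to 1.17.

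High-scoring peaks lay on the short arm more often than its length gives. The score of a peak is 10 times its −log10 q, rounded down, so 30 corresponds to a q-value of 0.001 or less. Of the 82 peaks with a score of 30 or more, 43 lay on the short arm, or 52.4%, which was 1.47 times its share of length (interval 1.15 to 1.78, two-sided exact binomial p = 0.00248, adjusted p = 0.00496). These were 25.9% of the 166 short-arm peaks and 13.8% of the 282 long-arm peaks. At a score of 50 or more, 7 of 10 peaks lay on the short arm. Fold is the deposited ratio of ANRIL signal over what was expected locally, with LacZ as the control per the peak names. It exceeded 4 in 37 short-arm peaks (22.3%) and 32 long-arm peaks (11.3%), against 15.5% of the whole list. Median folds were nearly the same, 3.47 (interquartile range 3.26 to 3.93) on the short arm and 3.43 (3.27 to 3.71) on the long arm. The arms lay further apart in the upper quartile than in the median, a difference that was not tested. At scores of 21 or more the short arm held 87 of 212 peaks, or 1.15 times its share (exact binomial, adjusted p = 0.114). The limits of 21 and 30 were alternative settings of the arm comparison. Their adjustment covers 2 comparisons within each limit and not the settings together, and the tests take peaks as independent.

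The stretch from 25 to 34 Mb, which spans the histone genes and the MHC, held 30 peaks, or 6.70% of those on the chromosome (exact 95% interval 4.56 to 9.42%) on 5.26% of its length. The excess of 1.27 times did not pass (two-sided exact binomial test, adjusted p = 0.337). Its peaks lay mostly on the side nearer the end of the arm. From 25 to 30 Mb there were 25 peaks, at 5 per Mb, and from 30 to 34 Mb there were 5, at 1.25 per Mb; this split followed the 5 Mb bins and was not tested on its own. By single Mb from 25 Mb, the counts were 2, 3, 7, 10 and 3, and then 1, 1, 1 and 2. The fullest Mb, from 28 to 29 Mb, had a median fold of 4.01 and a median score of 31, against 3.45 and 20 for the whole chromosome, and 6 of its 10 peaks scored 30 or more. In the Mb before it, the 7 peaks had a median fold of 3.40 and none scored 30 or more.

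The highest score of the stretch was 44, at chr6:26662762-26663238 (fold 4.44). The next were 37 at chr6:28831514-28831849 (fold 4.60) and 34 at chr6:28574641-28575550 (fold 4.06). The bin from 25 to 30 Mb was above the genome mean at every score limit tried. It held 17 of the peaks with a score of 21 or more (6.34 times the genome mean, exact binomial, adjusted p = 1.70e-07). It held 7 of those with a score of 30 or more (7.74 times, exact binomial, adjusted p = 0.00275). Chromosome 6 as a whole held 82 of the 560 peaks of the list with a score of 30 or more. At these limits the bin itself was not set against chromosome 6 alone. The wider stretch from 25 to 34 Mb was, and it did not pass at either limit. It stood at 1.70 times its length share at 21 or more (exact binomial, adjusted p = 0.0582) and 1.62 times at 30 or more (exact binomial, adjusted p = 0.206). The other bin above the genome mean at a score of 30 or more, from 120 to 125 Mb, held 6 such peaks (6.63 times, exact binomial, adjusted p = 0.0137).

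Peak-free distances within the stretch were long on the MHC side. The longest, from 30295430 to 31446724, measured 1151 kb. Another of 1001 kb ran from 25519729 to 26520696, between the second and the third peak of the stretch. Whether histone or MHC genes lie in these distances or under the peaks was not analysed here. The 5 peaks from 30 to 34 Mb had folds of 3.17 to 3.94 and scores of 16 to 29, and their median width was 733 bp against 402 bp for the 25 peaks before them. None of the 30 peaks of the stretch had a fold under 3 or a width under 200 bp.

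Peak names carry a number that increases along the genome, so they limit how many peaks had been called, in the set the names come from, before the deposited filters. On chromosome 6 they ran from 33422 to 41368, which gives at least 7947 and at most 8002 called peaks, of which 5.60 to 5.64% are in the list. Over the whole list at most 5.68% of called peaks were retained. The higher density of chromosome 6 was thus already present among called peaks, at 46.4 or more per Mb. The whole list had at least 18.2 per Mb, chromosome X 60.9 and chromosome 17 35.5. The short arm had 2591 to 2624 called peaks and kept 6.33 to 6.41%. The long arm had 5333 to 5401 and kept 5.22 to 5.29%. Per Mb, at least 42.5 peaks were called on the short arm and at least 48.4 on the long arm, so the short arm had the higher share kept and not the higher called density by these limits.

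Between 25 and 30 Mb, 191 to 289 peaks had been called and 8.65 to 13.1% were kept. That lower limit is above the upper limit of 31 of the other full bins, which reached at most 8.38%. It is not above those of the bins from 40 to 45 Mb (7.35 to 11.2%) and from 55 to 60 Mb (8.29 to 11.04%). From 30 to 35 Mb the called peaks numbered 133 to 188, and 3.19 to 4.51% were kept. The limits on called peaks of these 2 neighbouring bins did not overlap, so the bin from 25 to 30 Mb had more called peaks as well. Their deposited peaks numbered 25 and 6.

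**Figure D3:**
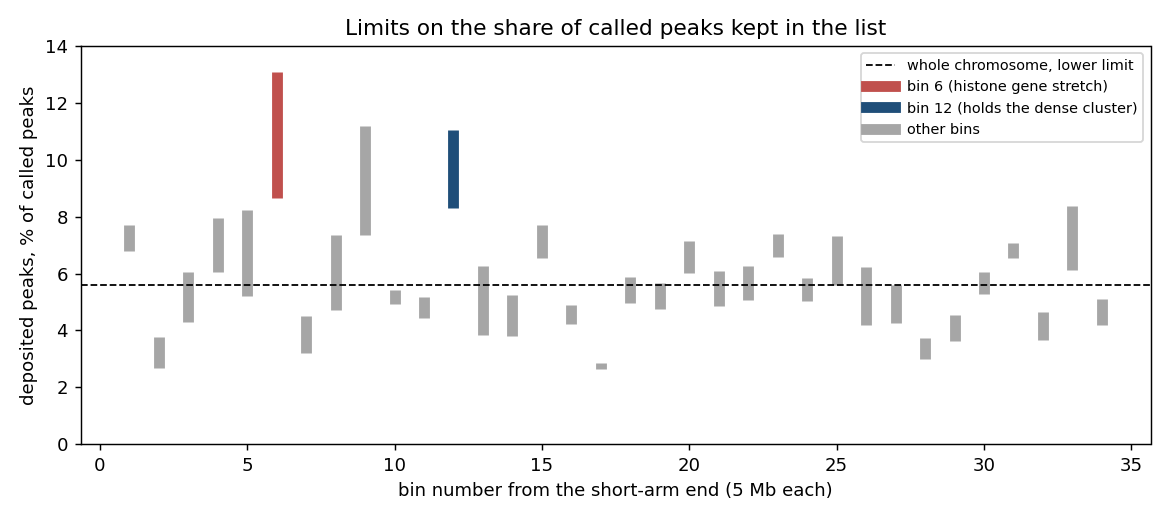
Lower to upper limit (vertical bars) of the share of called peaks that are in the list, in percent, for the 34 full 5 Mb bins of chromosome 6 numbered from the short-arm end (horizontal axis). Bin 6, in red, lies at 8.65 to 13.1% and bin 12, in blue, at 8.29 to 11.04%, above the dashed line at 5.60% for the chromosome.

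The densest group of peaks lay beside the centromere. From 57334648 to 57490629 there were 9 peaks within 156 kb, a group singled out for its density and so described without a test. Their folds were low. In order of position the folds were 2.99, 2.80, 2.97, 2.82, 2.90, 2.997, 2.88, 3.16 and 2.63, with a median of 2.90 while the other 439 peaks of chromosome 6 had a median of 3.46. All but the eighth were under 3, and these 8 were most of the 14 peaks with a fold under 3 on chromosome 6. Scores were 17, 16, 20, 16, 19, 21, 16, 37 and 17 in the same order, so the eighth peak, chr6:57482677-57483443, stood apart from the rest with a q-value of 0.000168.

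At matched scores of 16 to 18, the 5 cluster peaks had a median fold of 2.82 and the other 160 peaks of the chromosome one of 3.25. The signal behind these folds was not in the list. Widths in the cluster ran from 110 to 2210 bp, with a median of 400 bp against 362 bp outside it. The first peak, chr6:57334648-57336857, was the second widest of the chromosome. The last, chr6:57489043-57490629, had the lowest fold of the 448.

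The next peak towards the centromere, chr6:57509475-57512587, was the widest of the chromosome at 3113 bp, and its fold of 3.25 (score 36) was above those of all 9 cluster peaks. The next on the other side, chr6:57229694-57230056, had a fold of 2.82 at a score of 20. Beyond it, chr6:57108667-57109248 had a fold of 4.38 at a score of 37. With the widest peak added, 10 peaks covered 5.26% of a span of 178 kb, against 0.118% of the chromosome covered by all peaks. Names show at least 34 called peaks in that span, or 191 per Mb. After it no peak lay up to 62366811, a distance of 4854 kb that spans the split between the arms, and 23 called peaks were numbered in between.

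**Figure D4:**
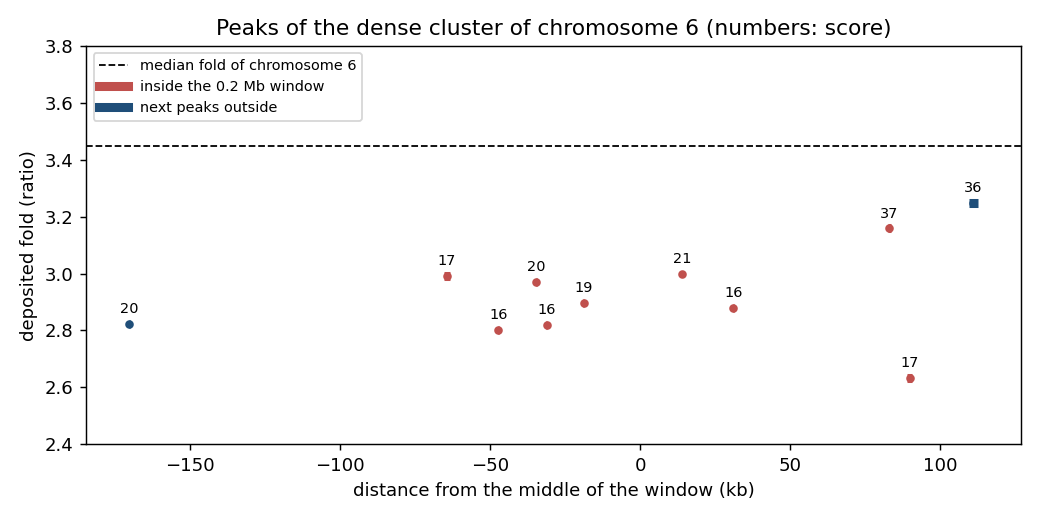
Deposited fold (vertical axis) of the 9 cluster peaks, in red, and of the nearest peak on each side, in blue, by distance in kb from the middle of their 0.2 Mb window (horizontal axis), with each peak's score printed above it and bar lengths equal to widths. All 11 peaks lie below the dashed line of the chromosome's median fold of 3.45, from 2.63 to 3.25.

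Folds on chromosome 6 had a median of 3.45 (interquartile range 3.26 to 3.75, n = 448 peaks) and ran from 2.63 to 5.92. The median was 3.48 on the rest of the list. Scores had a median of 20 (17 to 26) and ran from 16 to 78, against a median of 21 elsewhere. Widths had a median of 362 bp (272 to 538 bp) against 343 bp elsewhere, and together the peaks covered 203 kb. A q-value above 0.01 was given for 209 peaks, or 46.7%, against 41.9% of the rest. Peaks under 200 bp numbered 40 (8.93%, against 10.2% of the rest), and peaks of 1000 bp or more numbered 27 (6.03% against 5.97%). Folds under 3 made up 3.12% of chromosome 6 against 7.05% of the rest, and 15.1% of chromosome X. By these summaries the peaks of chromosome 6 were close in fold, score and width to those elsewhere. In the list 18 peak names occur on 2 intervals each, none of them on chromosome 6.

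Across the 448 peaks, which share their libraries and their filter and are not independent, fold rose with score (Spearman's rho 0.86). Score and width had a rho of 0.24, and fold and width one of 0.18, against −0.038 for fold and width on the rest of the list. That value pools chromosomes. On chromosomes 1, 5, 17, X and 19 taken singly, fold and width had a rho of 0.093, 0.074, 0.057, 0.037 and −0.006. Bin medians of fold ran from 2.997, in the bin that holds the cluster, to 3.87, in the bin from 5 to 10 Mb, over bins with at least 5 peaks.

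**Figure D5:**
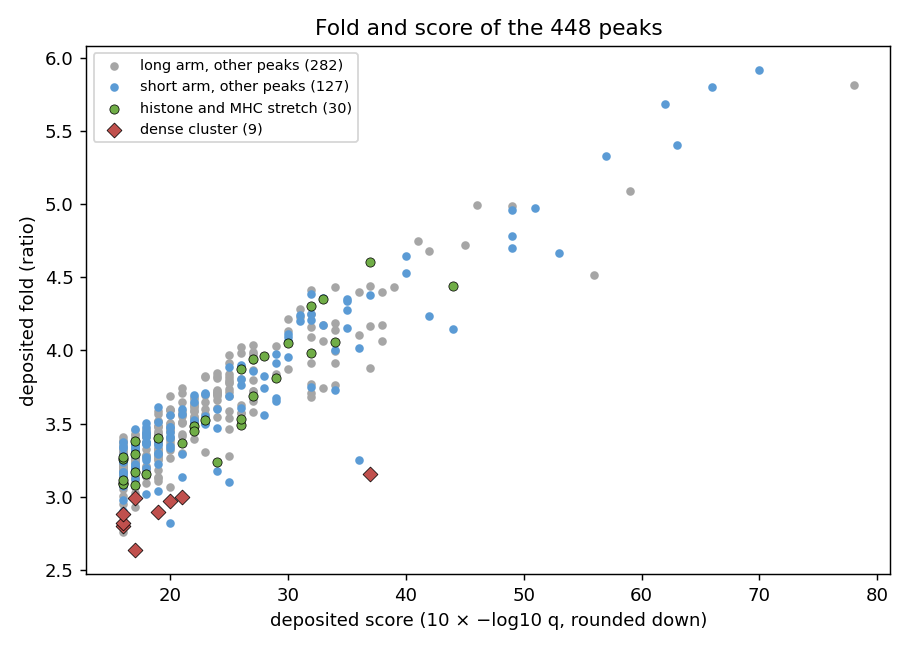
Deposited fold (vertical axis) against deposited score (horizontal axis) for the 448 peaks of chromosome 6, with short-arm peaks in light blue, long-arm peaks in grey, the 30 peaks from 25 to 34 Mb in green and the 9 cluster peaks as red diamonds. Fold rises with score, the diamonds lie along the lower edge, and 7 of the 10 points with a score of 50 or more are on the short arm.

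The strongest peak lay on the long arm at chr6:124936936-124937572, with a score of 78, a fold of 5.81 and a q-value of 1.57e-08. The highest fold, 5.92, was on the short arm at chr6:22919419-22919866, with a score of 70. Also on the short arm were peaks at chr6:49335260-49335547 (score 66, fold 5.80), chr6:37990293-37990676 (score 63, fold 5.40) and chr6:21675132-21675587 (score 62, fold 5.68). The next were chr6:151512576-151513412 on the long arm (score 59, fold 5.09) and chr6:49684510-49684798 on the short arm (score 57, fold 5.33). The peak at chr6:125803792-125804368 had a score of 56 at a lower fold of 4.51. The last of the 10 with the highest score were chr6:2995031-2995420 (score 53, fold 4.67) and chr6:10531306-10531658 (score 51, fold 4.98). These 10 peaks were 288 to 837 bp wide, none of them among the widest. Of the 10 highest folds, 8 belong to the same peaks, and the other 2 were chr6:90539788-90540076 (fold 4.998, score 46) and chr6:140099288-140099756 (fold 4.99, score 49).

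In the 24 bins above the genome mean, the highest score of a bin ran from 25, between 115 and 120 Mb, to 78. Some of the strongest peaks shared a 5 Mb bin. Those at 49335260 and 49684510 did, as did those at 21675132 and 22919419. Both pairs lay further apart than the median distance between neighbours of 239 kb, and closeness of strong peaks was not tested. From 124003533 to 125804368, a window chosen after its values were seen, there were 7 peaks. The 2 highest of them had scores of 78 and 56, and the peak between those, chr6:125513942-125514488, was near the filter, with score 16 and fold 3.13. TPD52L1, a gene of the D52-like family, is known to lie on this part of the long arm, and whether any of these peaks falls within it was not analysed here.

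The 5 widest peaks had scores of 16 to 36. After the widest, next to the cluster, and the second widest, within it, came chr6:97168131-97170202 (2072 bp, fold 3.27, score 19), chr6:140353541-140355346 (1806 bp, fold 3.33, score 16) and chr6:79925136-79926816 (1681 bp, fold 3.24, score 17). The narrowest intervals were 11 bp at chr6:50402469-50402479 (fold 3.36, score 18) and 17 bp at chr6:155133629-155133645 (fold 3.90, score 26). The others of the 5 narrowest were 29, 31 and 45 bp wide, with folds of 3.42, 3.46 and 3.27. The intervals as first called were not in the list, so the fold and score of such a narrow interval may belong to a wider one.

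Outside the cluster and its neighbour at 57229694, 4 peaks were among the 10 with the lowest fold. They were chr6:136797953-136798261 (fold 2.76), chr6:38471734-38471852 (fold 2.90), chr6:156751102-156751425 (fold 2.93) and chr6:76536094-76536319 (fold 2.95). Their scores were 16 or 17, at the lower end of the list, whose lowest score is 16.

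Neighbouring peaks were a median of 239 kb apart (interquartile range 102 to 522 kb, 447 distances). Of these distances, 13 were under 10 kb and 33 over 1 Mb. The median was 198 kb on the short arm and 256 kb on the long arm. The closest pair was 1450 bp apart, between 93974566 and 93976017, with folds of 3.75 and 3.52. The next 4 were 1968 to 3444 bp apart and included 1 pair in the cluster. In 26 cases neighbours in the list were also neighbours among the called peaks, and the median number of called peaks between neighbours was 11. Apart from the distance across the centromere, the longest were 2119 kb after 136798261, 2116 kb after 77174298, 2070 kb after 140355346, 1922 kb after 159728367 and 1895 kb after 82589317. Called peaks were numbered inside each of these 5, at 26.5 to 52.7 per Mb, against 4.74 per Mb across the centromere. The chromosome as a whole had at least 46.4 per Mb. The lowest of the 5, at 26.5 per Mb, was the distance after 159728367, where called peaks were also fewer.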

How the data were processed

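Per the labels, ChIRP-seq was done on HEK293 cells with ANRIL and LacZ oligos, and 1 list of ANRIL peaks was analysed. Per the submitters' processing notes, Bowtie2, MACS2, bedtools, deepTools and hg19 were used. Their versions and settings were not given in the sources used here. Per the file's title, the authors intersected the peaks of both replicates, filtered on a score of 15 and considered blacklisted regions. The deposited columns used hold a score (10 times −log10 q rounded down, checked in 3227 of 3227 rows), a fold and −log10 q. The fold is a ratio of ANRIL signal to expectation, with LacZ as the control per the peak names. These column meanings were read from the values and MACS2's column order. All are the authors' values. No reads or depth per sample were in the list. Positions are printed from 1.

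Peaks were assigned to windows by their start. Counts were set against standard hg19 lengths (general knowledge, from no file), gaps included, with two-sided exact binomial tests, and intervals are exact (Clopper-Pearson). Bins were adjusted by Benjamini-Hochberg over 633 bins, and the arm and the 25 to 34 Mb stretch over 2 comparisons. The threshold was an adjusted p of 0.05. Folds, scores and widths were described without a test. The bin test was checked on simulated lists of independently placed peaks, which does not cover clumped peaks. Peaks named are the 10 highest scores, the 10 highest and 10 lowest folds, the 5 widest and 5 narrowest, the cluster, the 3 highest scores of the stretch, and the peaks at the edges of the 5 smallest and 5 largest distances. The rule also took the highest score of each bin above the mean, given here as a range. Members, windows and lists were chosen with earlier results of these data known. Alternatives were score limits, merging, bin widths and reference lengths. Tests used scipy 1.17.1, tables pandas 2.3.3 and numpy 2.4.6, and plots matplotlib 3.10.9, under Python 3.11.15.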

Additional observations from a re-analysis of the deposited data

How the results depend on the processing

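Of the 35 bins of chromosome 6, 24 lay above the genome mean, or 68.6% against 13.3% of all bins. The number was 22 to 26 of 35 with peaks merged at 10 or 100 kb, shifted bins, chromosome X left out or the cluster left out. Other bin widths change the number of bins, so only shares can be set beside these. With bins of 2 Mb, 16 of 86 lay above, or 18.6% against 6.60% of all bins. With bins of 10 Mb, 16 of 18 did, or 88.9% against 17.1%. With 5 Mb bins the number was 4 with scores at or above the median and 2 with scores of 30 or more. These 2 settings had fewer peaks (212 and 82). The number was 0 against the chromosome's own mean, a different question. The short arm's ratio of 1.04 rose to 1.47 with scores of 30 or more, past the threshold, and turned to 0.996 with peaks closer than 100 kb merged; the cause was not tested. The stretch from 25 to 34 Mb did not pass under its 5 alternatives (1.07 to 1.70 times, exact binomial, adjusted p from 0.0582 to 1). The median fold of 3.45 was 3.79 with scores at or above the median and 4.23 with scores of 30 or more, and the median width of 362 bp was 424 and 456 bp, as fold and width go with score. The cluster held 2 peaks with scores at or above the median. Settings against the own mean, without the cluster, for the cluster and for the median score, and medians at scores of 30 or more, were added after seeing the data. No replicate could be left out, since values per sample are not in the list. No paired analysis was possible because 1 merged list replaces the samples. Low counts cannot be told from low sensitivity, since depth is unknown.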
